A study of Mus musculus with 30 samples.

Results

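MHC class I molecules display peptides on the cell surface for CD8 T cells, and each consists of a heavy chain paired with beta-2-microglobulin. Described here are 9 genes of this family: B2m, which encodes the shared light chain, the classical heavy chains H2-K1 and H2-D1, and the non-classical heavy chains H2-Q4, H2-Q6, H2-Q7, H2-T22, H2-T23 and H2-M3. They were taken by symbol from a list, and all 9 were found among the 54532 features counted, of which 25894 had at least 1 count. Transcripts were measured in 30 tumours of YUMM1.7, a mouse melanoma cell line on the C57BL/6 background. The tumours grew under the skin from 5 clones named 2646TN, 2646R, 14559TN, 14559R and 13TN, the letters TN and R not being spelled out in the labels and the titles of 13TN adding the word Depleted. Tumours of every clone were left untreated or received RAFi/MEKi, inhibitors of the RAF and MEK kinases, which gives 10 groups of 3 tumours. Every group therefore carried the same parental line, the CaTCH barcode system by which the clones had been isolated and a GFP label. Cells were released from the tumours with collagenase and stained for CD45, and live GFP-positive cells were collected. Each group holds tumours of 1 clone, so p-values cover the spread between tumours of that clone and not between clones. In bulk RNA a lower level cannot be told apart from a smaller share of the cells that express the gene.

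A classical heavy chain is displayed poorly at the cell surface without beta-2-microglobulin and a peptide. Peptides are cut by the proteasome, whose interferon-inducible subunits include Psmb8 and Psmb9, and are carried into the endoplasmic reticulum by the Tap1 and Tap2 transporter, where Tapbp (tapasin) helps to load them. Transcription of class I genes is driven by NLRC5, which acts through the X and Y boxes of their promoters, by IRF factors at interferon-stimulated response elements, and by NF-kappaB at an enhancer further upstream. Interferons raise most of these components in many cell types. H2-T23 encodes Qa-1, H2-Q6 and H2-Q7 belong to the Qa-2 genes, H2-T22 encodes a ligand of some gamma delta T cells, and H2-M3 presents formylated peptides.

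B2m lies on chromosome 2 (ENSMUSG00000060802, 122147686 to 122153083, plus strand, GRCm38), and the heavy chains lie on chromosome 17. H2-K1 (ENSMUSG00000061232) spans 33996017 to 34000333 on the minus strand and H2-D1 spans 35262730 to 35267499 on the plus strand. H2-Q4 (35379617 to 35385290), H2-Q6 (35424850 to 35430055) and H2-Q7 (35439155 to 35443773) follow H2-D1 on the plus strand. H2-T23 (36029773 to 36032855) and H2-T22 (36037128 to 36042747) lie on the minus strand, and H2-M3 (37270220 to 37274484) on the plus strand.

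The promoters are shown because most members moved together between clones. The windows come from the RefSeq promoter table (GRCm38.p6), in which all 9 members matched, and run 5′ to 3′ on the strand of the gene. Each is the stretch of the promoter from 10 bases before the first to 10 bases after the last match upstream of the start site. Capitals mark 4 motifs searched on both strands: an NF-kappaB site (GGGGATT followed by CCCC), an interferon-stimulated response core (TTTCNNTT), an X2 box core (TGACG) and a Y box core (GATTGG, or CCAATC on the other strand).
H2-K1, chr17:34000324-34000468, minus strand: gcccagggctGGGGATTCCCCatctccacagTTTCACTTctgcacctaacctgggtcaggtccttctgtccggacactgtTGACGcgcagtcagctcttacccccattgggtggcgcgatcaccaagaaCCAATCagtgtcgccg
H2-D1, chr17:35262913-35263056, plus strand: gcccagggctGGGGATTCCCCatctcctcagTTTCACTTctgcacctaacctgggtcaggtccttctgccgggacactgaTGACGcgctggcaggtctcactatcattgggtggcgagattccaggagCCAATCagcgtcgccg
H2-Q6, chr17:35424667-35424810, plus strand: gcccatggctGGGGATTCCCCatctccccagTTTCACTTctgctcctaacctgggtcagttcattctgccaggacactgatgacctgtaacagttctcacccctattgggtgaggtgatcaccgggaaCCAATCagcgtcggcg
H2-Q7, chr17:35439032-35439154, plus strand: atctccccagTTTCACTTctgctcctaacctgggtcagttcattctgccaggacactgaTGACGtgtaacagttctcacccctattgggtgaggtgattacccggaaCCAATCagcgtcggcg
H2-T22, chr17:36042750-36042943, minus strand: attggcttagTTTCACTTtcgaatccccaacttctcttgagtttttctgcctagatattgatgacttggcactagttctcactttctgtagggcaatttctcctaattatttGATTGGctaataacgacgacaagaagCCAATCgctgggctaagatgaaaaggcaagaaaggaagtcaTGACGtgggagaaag
H2-M3, chr17:37270123-37270202, plus strand: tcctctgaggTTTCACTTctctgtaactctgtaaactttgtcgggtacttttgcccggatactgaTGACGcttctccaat
B2m, chr2:122147540-122147648, plus strand: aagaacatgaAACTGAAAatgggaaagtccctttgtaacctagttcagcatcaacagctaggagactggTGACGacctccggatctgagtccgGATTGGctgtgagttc

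The NF-kappaB letters stood in the promoters of 3 members, H2-K1, H2-D1 and H2-Q6, and in 10 of 32817 promoters of 300 bases overall (0.0305%). The interferon-stimulated response core was found in all 9 members, against 23.9% of all promoters, and its longer form, with TC added at the 3′ end and so overlapping it, in B2m, H2-T22 and H2-T23, against 3.43%. The X2 box core was matched in 7 members, against 20.8% of all promoters, and the Y box core in 8, H2-M3 being without a match, against 16.1%. These 2 cores were not placed alike in all members. In H2-D1 they began at -101 and -53 and in H2-Q7 at -64 and -16, but in H2-Q4 at -73 and -55. In H2-T22 the X2 letters began at -22, nearer the start site than the Y box cores at -89 and -63. Capitals there mark the 5 letters only, not an X2 box in its usual place. These matches are descriptions of letters and not of bound sites.

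**Figure D1:**
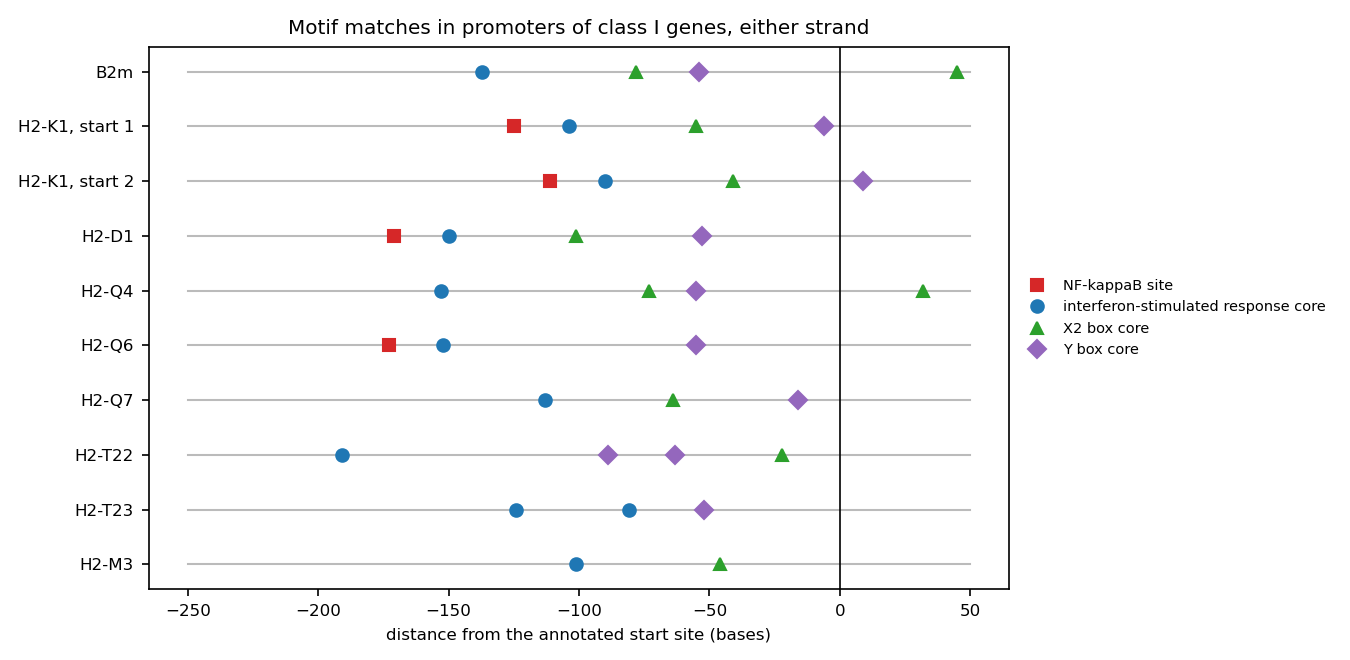
Positions of 4 motifs, matched on either strand, in the RefSeq promoters of the 9 members, as distance in bases from the annotated start site. H2-K1 has a pair of annotated starts, and the NF-kappaB site, matched by its exact letters only, is marked in H2-K1, H2-D1 and H2-Q6.

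Libraries came from Lexogen's QuantSeq kit for 3′ ends, so a count is a read near the 3′ end of a transcript. Totals ran from 3022801 to 5278453 counts, and levels are CPM, the share of a library's counts taken by a gene on a common scale, scaled with TMM factors, as mean ± SD with n = 3 in every group. Reads that matched several places were not counted, and several heavy chains resemble each other: of the 50-base stretches in the last 500 bases of the transcripts, 42.9% were shared with another gene in H2-Q6, 31.6% in H2-T22 (all of them with H2-T10), 27.5% in H2-Q4, 18.8% in H2-D1, 17.9% in H2-T23, 11.8% in H2-K1, 9.77% in H2-Q7 and 0% in B2m and H2-M3. Values of H2-Q6, H2-T22 and H2-Q4 are therefore uncertain between near-identical copies. Of the 9 members 8 passed the filter on low counts and were tested, with H2-T23 below it. H2-Q6 passed only through the 2646TN tumours, with 10 to 41 counts in a library there and 0 to 7 in any other. Its calls against 2646TN therefore carry no weight of their own. A gene was called changed at a Benjamini-Hochberg adjusted p under 0.05 in edgeR, adjusted over 13286 genes, and log2 fold changes are given with their standard error. Markers of other cells were present in the sorted cells: summed over a list, 14 macrophage genes stood at 26.6 to 374 CPM, 14 lymphocyte genes at 0 to 3.41 CPM with Cd3g, Ncr1, Cd79a and Ms4a1 at 0 counts, and 5 general leukocyte genes at 3.69 to 93.95 CPM. On the same scale 8 fibroblast genes stood at 1487 to 13950 CPM, 8 endothelial genes at 4.45 to 41.4 CPM, 7 dendritic cell genes at 0.253 to 8.54 CPM, 5 neutrophil genes at 0 to 10.6 CPM and 5 keratinocyte genes at 1.77 to 18.2 CPM. Single genes carried several of these sums. Col3a1 (median 2523 CPM) and Col1a1 (790 CPM) led the fibroblast genes. Pdgfra, Dcn and Postn followed with medians of 225, 157 and 74.0 CPM, and were counted in all 30 libraries. Lum, Dpt and Pi16 had medians of 4.41, 4.98 and 0.61 CPM. Krt10 had 1193 counts, against 1 for Krt5 and 5 for Krt14. Laptm5, at up to 84.4 CPM, and Cdh5, at up to 36.9 CPM, held most of the leukocyte and endothelial maxima. Which cells gave these transcripts was not tested. Of 8 pigment cell markers 5 had a count, with Tyr, Tyrp1 and Dct at 0. Mainly Mitf was seen, at 12.0 to 81.3 CPM in every library. Sox10 had a count in 20 of 30 libraries, with a median of 0.31 CPM and up to 51.8 CPM. Pmel had a count in 27, at no more than 1.8 CPM.

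B2m was the most abundant member in every group. It ran from 2431 ± 391 CPM in treated 2646R to 9172 ± 2397 CPM in treated 13TN, a ratio of 3.77. H2-K1 ran between the same groups from 232.5 ± 112 to 2091 ± 727 CPM, a ratio of 8.99, and H2-D1 from 135.9 ± 43.2 to 719 ± 222 CPM, a ratio of 5.29. These are levels on a 3′ count scale, on which a transcript gives about 1 read whatever its length.

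Ordered by H2-K1, treated 13TN was followed by treated 2646TN at 1500 ± 423 CPM, treated 14559TN at 970.4 ± 145 CPM, untreated 2646TN at 923.9 ± 157 CPM and untreated 13TN at 880.5 ± 391 CPM. Below these stood untreated 2646R at 496.6 ± 518 CPM, treated 14559R at 472.2 ± 212 CPM, untreated 14559R at 442.3 ± 163 CPM, untreated 14559TN at 344.8 ± 183 CPM and treated 2646R. Each group overlapped the next in this order, so neighbours did not differ beyond their spread, and the same held for B2m and H2-D1 in their own orders.

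The other heavy chains were scarce. H2-Q7 ran from 1.13 ± 0.996 CPM in treated 2646R to 40.6 ± 24.6 CPM in treated 2646TN, and H2-T22 from 3.46 ± 1.06 CPM in treated 2646R to 41.0 ± 20.4 CPM in treated 13TN. H2-Q4 ran from 1.86 ± 1.54 CPM in untreated 14559TN to 22.95 ± 9.67 CPM in treated 13TN, and H2-M3 between the same groups from 2.77 ± 1.53 to 16.3 ± 8.70 CPM. The treated 13TN tumours stood apart from the next group, treated 2646TN, for H2-T22. H2-Q6 was highest in treated 2646TN, at 8.21 ± 4.56 CPM, next in untreated 2646TN, at 4.15 ± 2.65 CPM, and at most 0.795 CPM in the mean of any other group. It had 0 counts in untreated 14559TN, treated 14559R and treated 2646R.

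H2-T23 had 0 to 12 counts in a library and could not be tested. It stood at 2.26, 2.50 and 1.51 CPM in treated 13TN, and in treated 14559TN at 2.27 and 2.51 CPM in replicates 1 and 2 while replicate 3 had 0. Replicate 1 of untreated 2646R, with 10 counts, stood at 1.96 CPM. All 3 libraries of treated 2646R had 0.

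**Figure D2:**
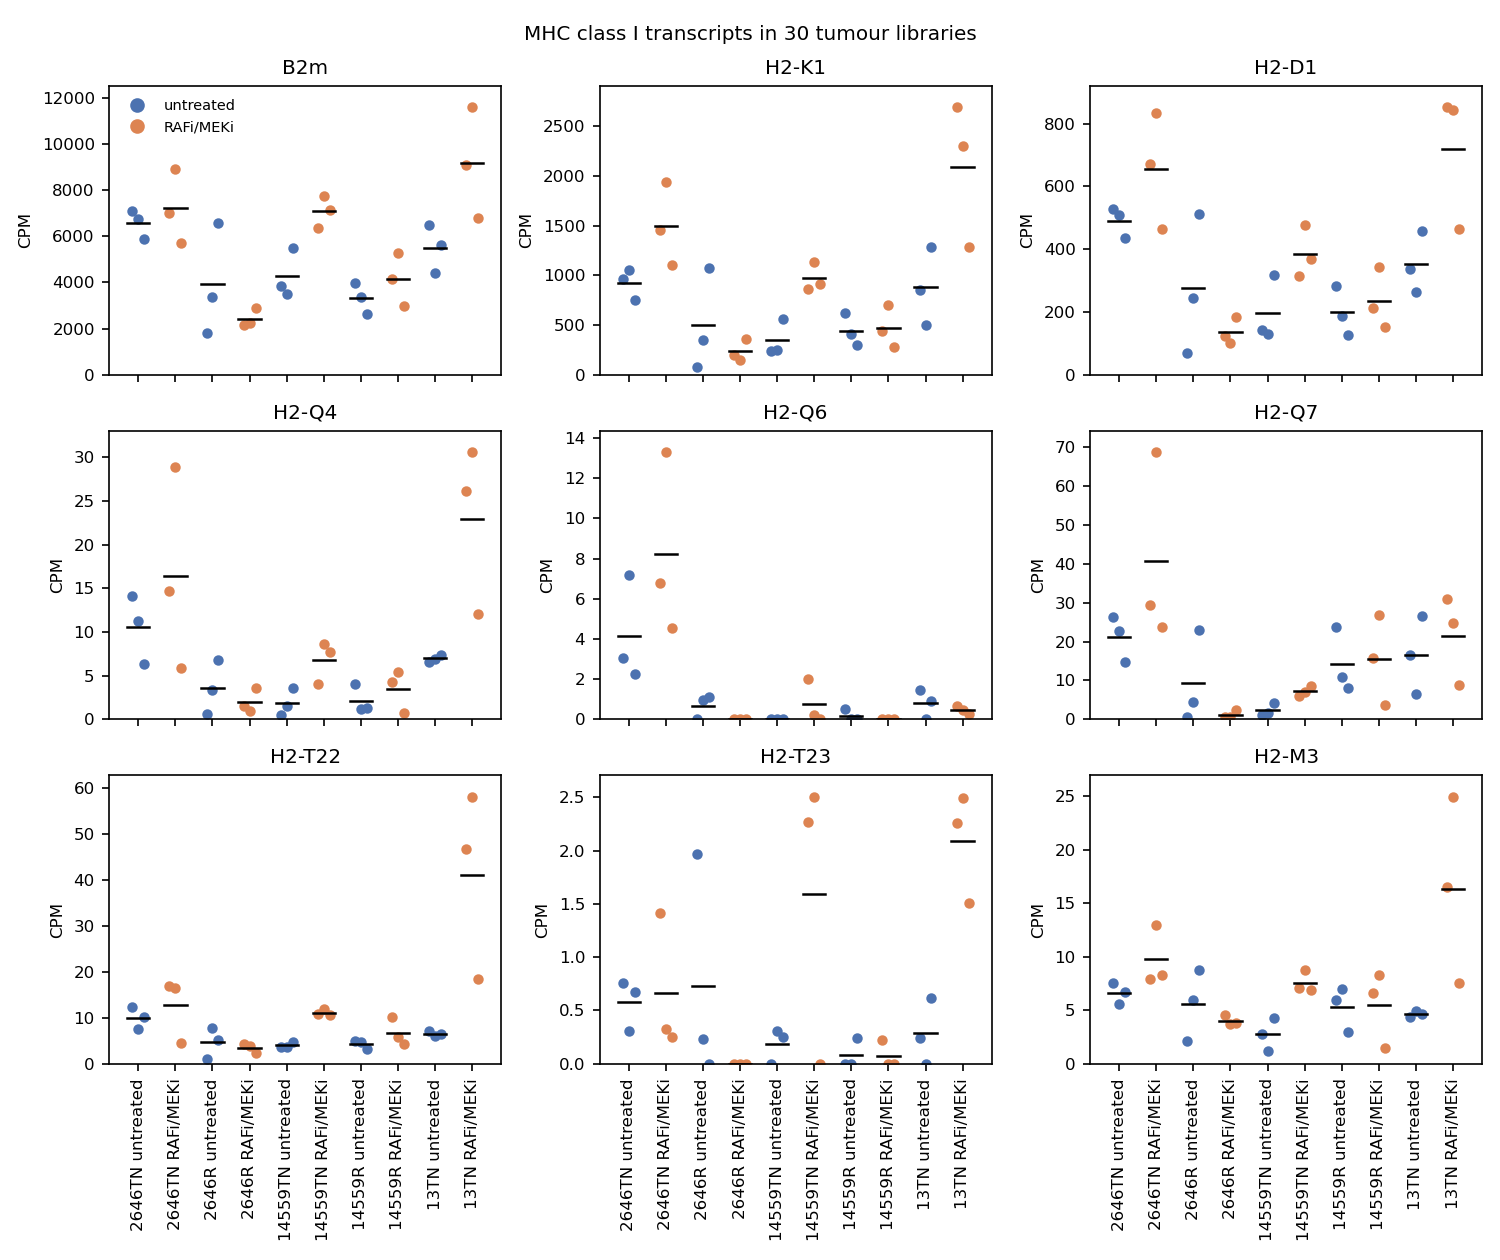
Level of each of the 9 genes in every tumour library (points, CPM) with the group mean (line), for 5 clones untreated or with RAFi/MEKi. By group mean, treated 13TN is highest for B2m, H2-K1, H2-D1, H2-Q4, H2-T22, H2-T23 and H2-M3, and treated 2646TN for H2-Q6 and H2-Q7.

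RAFi/MEKi in 13TN came with more H2-T22, H2-M3 and H2-Q4. Of the 8 tested members 3 were called higher and 0 lower (13.6% of all genes were called higher and 17.4% lower), and the groups did not overlap for 5 members, all higher in treated tumours (21.8% of all genes were apart in that direction). The median log2 fold change of the members was 1.14, with that of all genes near 0.
H2-T22 stood at 7.06, 5.95 and 6.46 CPM in untreated and at 46.7, 58.1 and 18.4 CPM in treated 13TN tumours. All treated values lay above all untreated ones, and the log2 fold change was 2.66 ± 0.46 (edgeR adjusted p = 4.69e-05). H2-T10, with which H2-T22 shares 3′ sequence, had 8 counts in untreated and 29 in treated tumours of that clone. H2-M3 went from 4.38, 4.96 and 4.62 CPM to 16.5, 24.95 and 7.55 CPM, again without overlap, with a log2 fold change of 1.81 ± 0.46 (adjusted p = 0.00312 in edgeR). H2-Q4 went from 6.57, 6.95 and 7.38 CPM to 26.2, 30.6 and 12.1 CPM, with a log2 fold change of 1.72 ± 0.62 (adjusted p = 0.0348 in edgeR). Treated replicate 3 was the lowest of its group for all 8 tested members, and for H2-K1 its 1282 CPM equalled the 1283 CPM of untreated replicate 3.

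The classical chains and B2m were not called in 13TN. B2m stood at 6487, 4405 and 5626 CPM untreated and at 9101, 11600 and 6810 CPM treated, without overlap, with a log2 fold change of 0.74 ± 0.32 (edgeR adjusted p = 0.0849). H2-K1 stood at 855.3, 503 and 1283 CPM untreated and at 2690, 2300 and 1282 CPM treated (1.25 ± 0.62, edgeR adjusted p = 0.139). H2-D1 stood at 337, 263.7 and 458.7 CPM untreated and at 851.9, 842.4 and 462.8 CPM treated (1.03 ± 0.51, edgeR adjusted p = 0.134), its lowest treated value just above its highest untreated one. H2-Q7 (0.40 ± 0.77) and H2-Q6 (-0.73 ± 1.17, on 6 treated and 9 untreated counts) were not called, and H2-T23 went from 3 to 27 counts, a ratio of 8.0 with a 95% Poisson interval of 2.74 to 38.8 that covers counting error only. The H2-Q4 call was lost without untreated replicate 1 (adjusted p = 0.0881), 2 (0.0775) or 3 (0.0832) or treated replicate 1 (0.0803) or 2 (0.112), in edgeR each time. Of 8 fibroblast markers 5 were called higher in treated 13TN (13.6% of all genes), the sum of the 8 standing at 1751 to 2149 CPM untreated and 4561 to 5593 CPM treated. The macrophage sum was 64.2 to 106 CPM untreated and 30.6 to 90.1 CPM treated, and that of the neutrophil markers 2.98 to 4.14 and 4.06 to 9.98 CPM. The part of these lists in the result was not tested.

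In 14559TN the same direction was seen in all 8 tested members, and H2-T22 and H2-M3 were called higher (2 of 8, against 12.4% of all genes). The groups did not overlap for 6 members, all higher in treated tumours (22.9% of all genes), and the members' median log2 fold change was 1.48, or 1.44 with H2-Q6 at its bound, with that of all genes near 0.
H2-T22 stood at 3.55, 3.69 and 4.79 CPM untreated and at 10.8, 11.9 and 10.6 CPM treated, with a log2 fold change of 1.46 ± 0.50 (edgeR adjusted p = 0.0291). H2-M3 stood at 2.79, 1.23 and 4.29 CPM untreated and at 7.10, 8.77 and 6.86 CPM treated (1.42 ± 0.51, edgeR adjusted p = 0.0356). H2-K1 stood at 235.3, 243.4 and 555.9 CPM untreated and at 860.1, 1134 and 916.8 CPM treated. It did not overlap between the groups either but missed the threshold, at 1.49 ± 0.63 (edgeR adjusted p = 0.0843). B2m, at 3867, 3511 and 5486 CPM untreated and 6380, 7756 and 7142 CPM treated, was likewise apart and not called (0.73 ± 0.32, edgeR adjusted p = 0.0950). Untreated replicate 3 was the highest of its group for each of these genes.

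H2-D1 overlapped in 14559TN, at 141.9, 130.3 and 317.4 CPM untreated and 313.5, 475.7 and 367 CPM treated (0.97 ± 0.51, edgeR adjusted p = 0.168). H2-Q4 (1.85 ± 0.77) and H2-Q7 (1.63 ± 1.05) were apart and not called. H2-Q6 had 0 counts untreated and 8 treated, at least 2.52-fold higher with a floor of 3 counts over the untreated group, and H2-T23 went from 2 to 20 counts, a ratio of 9.45 (95% Poisson interval 2.62 to 78.0). H2-Q4 was called without untreated replicate 3 (edgeR adjusted p = 0.0471). The H2-T22 call was lost in edgeR without any 1 of the 6 libraries, with adjusted p up to 0.0929. Without treated replicate 3, which had 0 counts of it, H2-T23 passed the filter through the few libraries with most counts of it. Its call as higher in that fit (edgeR adjusted p = 0.0276) therefore carries no weight. The H2-M3 call was lost without untreated replicate 1 (adjusted p = 0.0864) or 2 (0.150) or treated replicate 1 (0.0551), 2 (0.0994) or 3 (0.0523) in edgeR. Of 8 fibroblast markers 5 were called higher in treated 14559TN (12.4% of all genes), with sums of 3610 to 4022 CPM untreated and 5786 to 8360 CPM treated. The dendritic cell sum was 0.615 to 2.02 CPM untreated and 4.39 to 4.83 CPM treated, the macrophage sum 31.7 to 106 and 77.7 to 149 CPM, and that of 9 MHC class II genes 11.2 to 58.7 and 95.7 to 187 CPM, with 4 of the 6 tested called higher (12.4% of all genes). The part of these lists in the result was not tested.

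In 2646TN, which had high class I transcripts untreated, edgeR called 0 of 8 members (3.94% of all genes called), with 0 at an unadjusted p under 0.05 and 0 called by DESeq2. H2-K1 stood at 963.4, 1057 and 751.1 CPM untreated and at 1456, 1943 and 1101 CPM treated, and H2-M3 at 7.56, 5.61 and 6.74 CPM untreated and 7.91, 13.0 and 8.33 CPM treated. These 2 genes were apart between the groups (10.1% of all genes were apart and higher), with log2 fold changes of 0.70 ± 0.62 and 0.54 ± 0.46 (edgeR adjusted p = 0.670 and 0.650). B2m overlapped, at 7112, 6763 and 5899 CPM untreated and 7022, 8922 and 5717 CPM treated (0.13 ± 0.32, edgeR adjusted p = 0.916). The members' median was 0.58, against 0.01 for all genes. The summed macrophage markers stood at 231 to 374 CPM in untreated and at 42.2 to 128 CPM in treated tumours of this clone, and their part in the members' values was not tested.

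In 2646R and 14559R no member was called with treatment. In 2646R edgeR called 0 of 8 members (19.9% of all genes called), DESeq2 called 1 and 3 were under 0.05 without adjustment, and all 8 estimates were below 0, with a median of -0.90 against 0.01 for all genes. Untreated 2646R was the most uneven group: H2-K1 stood at 72.1, 344 and 1074 CPM in replicates 1, 2 and 3, and B2m at 1826, 3348 and 6579 CPM. Replicate 1 of this group had the highest total of the 30 libraries, 5278453 counts, and the fewest genes with a count, 14669, and the part of this in its values was not tested. In treated tumours H2-K1 stood at 197.3, 142.7 and 357.5 CPM (-1.09 ± 0.63, edgeR adjusted p = 0.238) and B2m at 2157, 2257 and 2879 CPM (-0.69 ± 0.32, adjusted p = 0.136 in edgeR), within the range of the untreated ones. Without untreated replicate 1, B2m (-0.99, edgeR adjusted p = 0.0178), H2-D1 (-1.43, 0.0391) and H2-Q7 (-3.54, 0.0270) were called lower. Without untreated replicate 3, which was the highest, the H2-K1 estimate turned to 0.21 (edgeR adjusted p = 0.846). H2-Q6 went from 8 counts to 0, at least 2.64-fold lower, and H2-T23 from 11 counts to 0, at least 3.63-fold lower, with 10 of the 11 counts in untreated replicate 1. H2-T23 was called lower without untreated replicate 2 (edgeR adjusted p = 0.0430) or 3 (0.0330). It passed the filter there through the few libraries with most counts of it, so these calls carry no weight.

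In 14559R edgeR called 0 of 8 members (0.196% of all genes called), with 0 at an unadjusted p under 0.05 and 0 by DESeq2. H2-K1 stood at 619, 410.4 and 297.6 CPM untreated and at 441.9, 698.1 and 276.6 CPM treated (0.09 ± 0.62, edgeR adjusted p = 0.985), and B2m at 3996, 3357 and 2628 CPM untreated and 4144, 5280 and 2994 CPM treated (0.32 ± 0.32, adjusted p = 0.796 in edgeR). The groups overlapped for all 8 tested members, and the median was 0.18 against 0.00 for all genes.

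**Figure D3:**
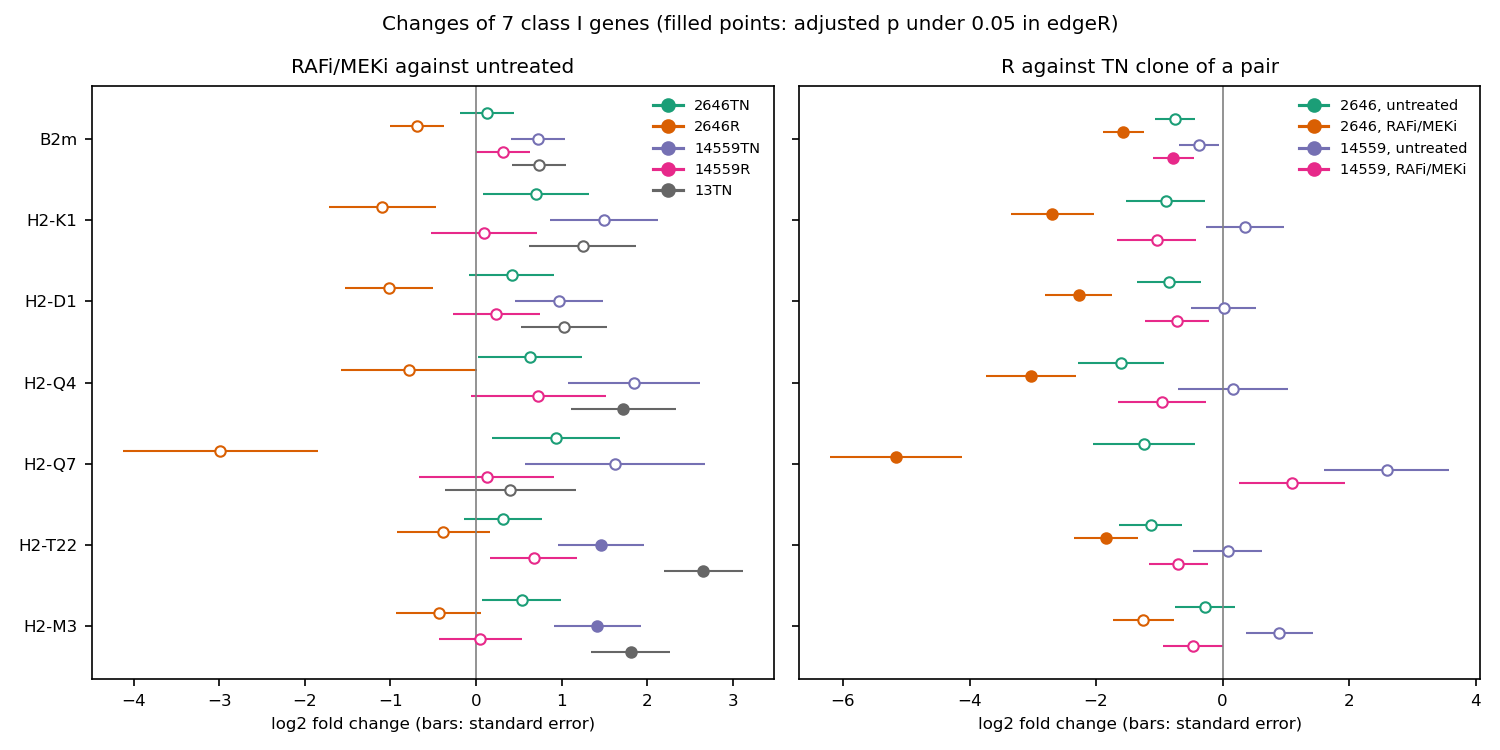
Log2 fold changes with standard errors for 7 members, left for RAFi/MEKi against untreated tumours in 5 clones and right for the R against the TN clone of each pair. Filled points passed the edgeR threshold, which on the left were H2-T22 and H2-M3 in 14559TN and 13TN and H2-Q4 in 13TN, and on the right 6 of these genes for treated 2646R and B2m for treated 14559R.

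The responses of clones were also compared with each other, since a call in one clone and none in another shows no difference between them. These comparisons share groups of tumours with each other and with those above. In edgeR 0 members were called in the difference between 2646R and 2646TN (4.15% of all genes called, 2 members at an unadjusted p under 0.05, 1 called by DESeq2). Also 0 were called between 14559R and 14559TN (12% of all genes, 1 member at an unadjusted p under 0.05, 0 by DESeq2), between 2646TN and 14559TN (14.1%, 0 and 0) and between 14559TN and 13TN (0.444%, 1 and 0). Without the filter on low counts edgeR called 4, 3, 2 and 0 of 9 members in these 4 comparisons, against 3.77%, 6.88%, 7.4% and 1.28% of all genes. The response of H2-K1 in 2646R minus that in 2646TN was -1.79 ± 0.88 (edgeR adjusted p = 0.291), and in 14559R minus 14559TN -1.40 ± 0.88 (adjusted p = 0.344 in edgeR). The estimates were below 0 for all 8 tested members in both pairs, with medians of -1.42 and -1.24 against 0.01 and 0.03 for all genes.

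The R and TN clones of a pair were then compared, first treated 2646R with treated 2646TN. Of the 8 tested members 7 were called lower in 2646R, against 10.1% of all genes, and all 8 were apart between the groups and lower, against 17.2% of all genes. Both counts include H2-Q6, which passed the filter only through 2646TN. The members' median log2 fold change was -2.48, against -0.01 for all genes.
H2-K1 stood at 1456, 1943 and 1101 CPM in treated 2646TN and at 197.3, 142.7 and 357.5 CPM in treated 2646R, a log2 fold change of -2.69 ± 0.66 (edgeR adjusted p = 0.00622). H2-D1 stood at 670, 832.6 and 463.9 CPM against 123.5, 100.3 and 183.9 CPM (-2.27 ± 0.53, edgeR adjusted p = 0.00436). B2m stood at 7022, 8922 and 5717 CPM against 2157, 2257 and 2879 CPM (-1.57 ± 0.33, edgeR adjusted p = 0.00146). In each of these genes replicate 3 of 2646TN was the lowest of its group and replicate 3 of 2646R the highest, and a clear gap remained between them.

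Among the non-classical chains, H2-Q7 stood at 29.4, 68.8 and 23.7 CPM in treated 2646TN and at 0.651, 0.469 and 2.28 CPM in treated 2646R (-5.16 ± 1.05, edgeR adjusted p = 0.00140). H2-Q6 had 83 counts in treated 2646TN and 0 in treated 2646R, at least 33.5-fold lower with a floor of 3 counts over the group (edgeR adjusted p = 0.000265). Since it passed the filter only through 2646TN, this call carries no weight of its own. H2-Q4, at 14.7, 28.9 and 5.81 CPM against 1.52, 0.937 and 3.54 CPM, was also called (-3.03 ± 0.72, edgeR adjusted p = 0.00374). H2-T22 stood at 16.9, 16.6 and 4.54 CPM against 4.34, 3.75 and 2.28 CPM (-1.84 ± 0.50, edgeR adjusted p = 0.00945). Its lowest 2646TN value thus stood next to the highest 2646R value, and its call was lost without replicate 1 of treated 2646TN (adjusted p = 0.0576) or replicate 3 of treated 2646R (0.0551) in edgeR. H2-M3, at 7.91, 13.0 and 8.33 CPM against 4.56, 3.75 and 3.80 CPM, was apart but not called (-1.25 ± 0.48, edgeR adjusted p = 0.0613), and H2-T23 went from 7 counts to 0, at least 2.83-fold lower. In these tumours the summed macrophage markers were higher in 2646R, at 141 to 155 CPM, than in 2646TN, at 42.2 to 128 CPM, and lymphocyte markers stood at 0.253 to 1.30 and 0.325 to 3.03 CPM. The fibroblast sum was 5321 to 6848 CPM in 2646R and 2497 to 4695 CPM in 2646TN, and its part in the difference was not tested. With macrophage and leukocyte markers as a covariate 6 members were called lower, the H2-T22 call being lost (edgeR adjusted p = 0.0520).

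Untreated, the same clones differed less evenly. Of 8 members 1 was called lower in 2646R (18.4% of all genes), H2-Q6, at 3.02, 7.17 and 2.25 CPM in 2646TN and 0, 0.947 and 1.09 CPM in 2646R (-2.61 ± 0.95, edgeR adjusted p = 0.0319). That gene passed the filter only through 2646TN, so the call carries no weight of its own. The other 7 estimates were below 0 as well, from -0.28 for H2-M3 to -1.61 for H2-Q4, with a median of -1.02 over the 8 members. Replicate 3 of untreated 2646R lay within the 2646TN range for B2m, and its 1074 CPM of H2-K1 exceeded the 963.4, 1057 and 751.1 CPM of 2646TN. Without that library 6 members were called lower, among them H2-K1 (-2.16, edgeR adjusted p = 0.0118) and B2m (-1.36, edgeR adjusted p = 0.000815). Without replicate 2 of untreated 2646R H2-T22 was called besides H2-Q6 (edgeR adjusted p = 0.0145), and the H2-Q6 call was lost without replicate 1 of that group (edgeR adjusted p = 0.134), without replicate 2 of untreated 2646TN (0.158) and with the marker covariate (0.298). The summed macrophage markers of untreated 2646TN, 231 to 374 CPM, were far above the 39.8 to 85.8 CPM of untreated 2646R, and their part in the difference was not tested.

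Between treated 14559R and treated 14559TN only B2m was called, 1 of 8 members lower against 22.7% of all genes, a share of members below the background. B2m stood at 6380, 7756 and 7142 CPM in 14559TN and at 4144, 5280 and 2994 CPM in 14559R (-0.78 ± 0.32, edgeR adjusted p = 0.0482). B2m, H2-K1 and H2-T22 were apart between the groups (3 of 8, against 27.7% of all genes), with H2-K1 at -1.04 ± 0.62 (edgeR adjusted p = 0.176). The B2m call was lost without treated 14559TN replicate 1 (edgeR adjusted p = 0.0564), 2 (0.109) or 3 (0.0767), without treated 14559R replicate 1 (0.0804) or 3 (0.198), and with the marker covariate (0.0941). H2-Q6, with 8 counts against 0, was at least 2.81-fold lower and was called without treated 14559TN replicate 2 (edgeR adjusted p = 0.0381) or 3 (0.0303). H2-T23 had 20 counts against 1, a ratio of 21.1 (95% Poisson interval 3.79 to 834). It was called without treated 14559TN replicate 1 or 3 or treated 14559R replicate 1 (edgeR adjusted p = 0.0441, 0.00495 and 0.0180). In those fits it passed the filter through the few libraries with most counts of it, so these calls carry no weight. H2-Q7 had the other sign in this pair (1.10 ± 0.84, edgeR adjusted p = 0.291). The macrophage sum was 30.8 to 53.2 CPM in treated 14559R and 77.7 to 149 CPM in treated 14559TN, and the fibroblast sum 7984 to 13950 and 5786 to 8360 CPM, and their part in these values was not tested.
Untreated, edgeR called 0 members between 14559R and 14559TN (24.1% of all genes called), with 1 at an unadjusted p under 0.05 and 1 called by DESeq2. H2-Q7 stood at 1.02, 1.54 and 4.29 CPM in 14559TN and at 23.7, 10.9 and 8.06 CPM in 14559R, apart and short of the threshold (edgeR adjusted p = 0.0618).

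The untreated TN clones were compared as well. Against 14559TN, 2646TN had 3 members called higher of 8 (10.1% of all genes), and all 8 were apart and higher (20.7% of all genes), with a median log2 fold change of 1.37 against 0.01 for all genes. H2-Q4 (2.47 ± 0.75, edgeR adjusted p = 0.0206) and H2-Q7 (3.17 ± 0.97, edgeR adjusted p = 0.0253) were called, and H2-Q6, with 45 against 0 counts, was at least 14.4-fold higher (adjusted p = 0.00233 in edgeR). The H2-Q6 call carries no weight of its own, as the gene passed the filter only through 2646TN. H2-K1 stood at 963.4, 1057 and 751.1 CPM against 235.3, 243.4 and 555.9 CPM (1.42 ± 0.63, edgeR adjusted p = 0.129). The H2-Q4 and H2-Q7 calls were lost in edgeR without replicate 1 of 2646TN (adjusted p = 0.0846 and 0.0725), replicate 1 of 14559TN (0.116 and 0.114) or replicate 2 of 14559TN (0.0724 and 0.0855), that of H2-Q7 also without replicate 2 of 2646TN (0.0531). H2-D1 was called without replicate 3 of 14559TN (edgeR adjusted p = 0.0399), and all 3 calls were lost with the marker covariate (adjusted p = 0.126 for H2-Q4, 0.0578 for H2-Q6 and 0.296 for H2-Q7). The macrophage markers, at 231 to 374 CPM in 2646TN and 31.7 to 106 CPM in 14559TN, moved with this difference, as did 6 of 6 tested MHC class II genes, called higher in 2646TN, and their part in it was not tested.
Against 13TN, edgeR called 0 of 8 members in 2646TN (16.2% of all genes called, 1 member at an unadjusted p under 0.05, 0 by DESeq2) and 0 in 14559TN (11.2%, 4 and 1).

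The proportion of light to heavy chains differed between groups. B2m counts divided by the summed heavy chains gave 4.52 ± 0.32 in untreated and 3.26 ± 0.25 in treated 2646TN, 8.47 ± 2.04 and 5.14 ± 0.38 in 14559TN, and 4.67 ± 1.32 and 3.27 ± 0.70 in 13TN. In 2646R the ratio was 7.30 ± 4.47 untreated and 6.89 ± 1.91 treated, and in 14559R 5.21 ± 0.88 and 5.90 ± 0.99. The ratio of H2-K1 to H2-D1 was 1.87 ± 0.18 in untreated and 2.29 ± 0.11 in treated 2646TN, 1.76 ± 0.11 and 2.54 ± 0.18 in 14559TN, and 2.42 ± 0.46 and 2.89 ± 0.24 in 13TN. In 14559R it was 2.24 ± 0.10 untreated and 1.99 ± 0.14 treated, and in 2646R 1.52 ± 0.54 and 1.66 ± 0.27. No test was made of these ratios, which with 3 tumours against 3 describe the libraries only.

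The members varied more between tumours of a group than most genes at their level. The biological coefficient of variation was 51.1% for H2-K1, against a median of 12.2% for 147 genes of like level, and 42% for H2-D1, against 12.6%. It was 70.7% for H2-Q7 (median 20.3%), 54.7% for H2-Q4 (25.3%), 36.4% for H2-T22 (22.8%), 34.9% for H2-M3 (26.6%) and 26.8% for B2m (19.2%). The deviations were shared: over the 30 libraries, log2 levels less the group mean had Pearson's r of 0.25 to 0.98 in the 28 pairs of tested members (median 0.71), with 0.98 for H2-K1 and H2-D1 and 0.94 for B2m and H2-K1. These libraries share their scaling and depth with both genes of a pair, so the values are descriptions. The mean deviation of the members was largest in untreated 2646R, at -1.48 in replicate 1 and 1.17 in replicate 3 on the log2 scale. Both libraries weigh heavily in these correlations, which were not computed without them. The 2646R tumour with 72.1 CPM of H2-K1 had 0.786 CPM of Nlrc5 and 24.9 CPM of Iigp1, an interferon-inducible GTPase, and the one with 1074 CPM had 23.2 and 178 CPM.

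**Figure D4:**
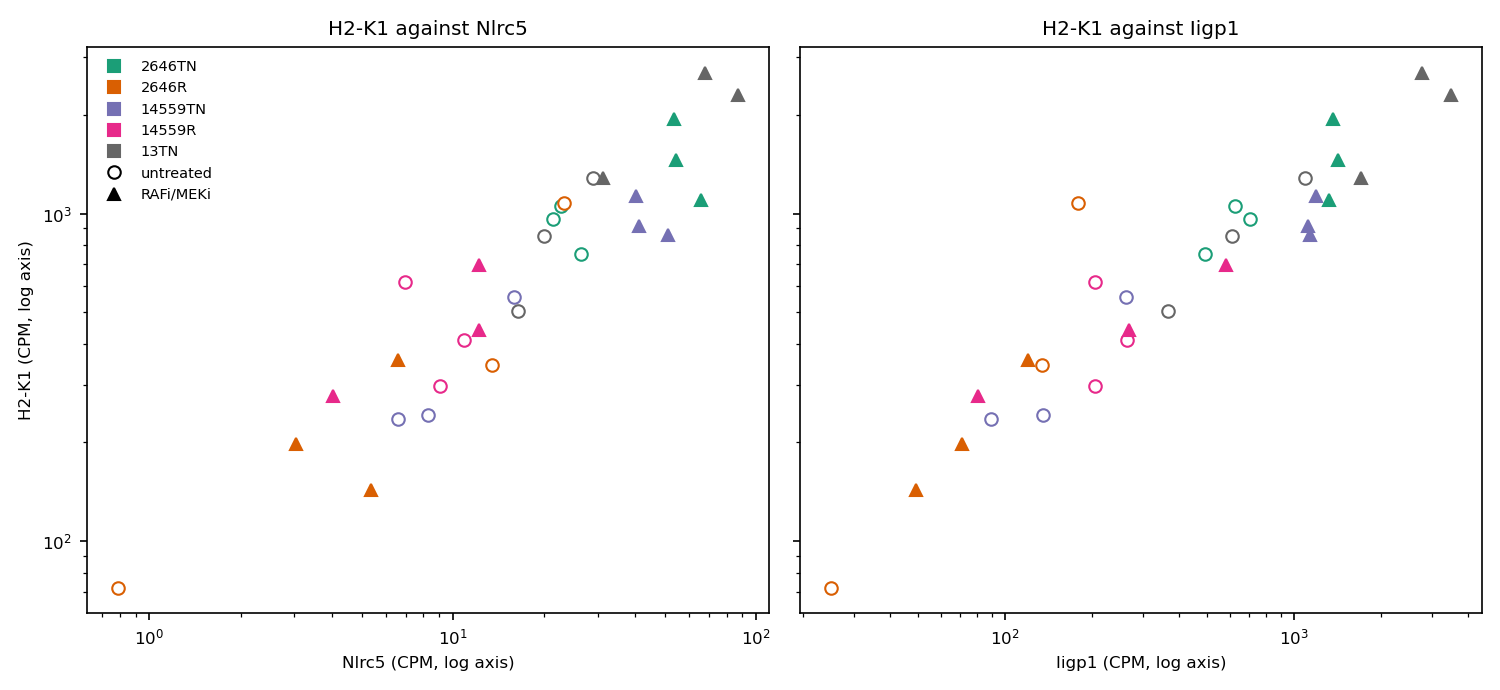
H2-K1 in each of the 30 tumour libraries against Nlrc5 (left) and Iigp1 (right), both in CPM on log axes, coloured by clone with filled triangles for RAFi/MEKi and open circles for untreated. The untreated 2646R tumour at 72.1 CPM of H2-K1 is lowest on all axes, and treated 13TN tumours reach 2690 CPM.

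Nlrc5, the main transactivator of class I genes, was most abundant in the treated TN clones. It stood at 57.9 ± 6.71 CPM in treated 2646TN, 62.1 ± 28.4 CPM in treated 13TN and 44.1 ± 6.08 CPM in treated 14559TN. In untreated tumours it stood at 23.6 ± 2.65 CPM in 2646TN, 21.8 ± 6.46 CPM in 13TN and 12.5 ± 11.3 CPM in 2646R, 10.3 ± 4.94 CPM in 14559TN and 8.96 ± 1.94 CPM in 14559R, and in treated 2646R and 14559R at 5.00 ± 1.80 and 9.50 ± 4.73 CPM. Nlrc5 rose with treatment in 14559TN (2.09 ± 0.57, edgeR adjusted p = 0.00789) and 13TN (1.52 ± 0.53, edgeR adjusted p = 0.0310). In 2646TN Nlrc5 was not called but did not overlap, at 21.4, 22.8 and 26.5 CPM untreated and 54.5, 53.6 and 65.6 CPM treated. It was lower in treated 2646R than in treated 2646TN (-3.54 ± 0.61, edgeR adjusted p = 0.000265) and in treated 14559R than in treated 14559TN (-2.20 ± 0.57, edgeR adjusted p = 0.00274).

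Among the partners of class I assembly, Tapbp rose in 14559TN (1.81 ± 0.28) and 13TN (1.46 ± 0.28), and Tap1 in 14559TN (2.12 ± 0.60, edgeR adjusted p = 0.0118) and not past the threshold in 13TN (1.34 ± 0.56, edgeR adjusted p = 0.0774). Psmb9 rose in 13TN (1.99 ± 0.59, edgeR adjusted p = 0.0136), and Psmb8 stood at 1.44 ± 0.58 in 14559TN and 1.19 ± 0.55 in 13TN without a call. Tap1, Psmb8 and Psmb9 were not called in 2646TN. Untreated and treated, Tap1 stood there at 179.9 ± 9.87 and 305.8 ± 31.5 CPM and Psmb8 at 158.3 ± 18.7 and 300.6 ± 62.5 CPM. Psmb9 stood at 32.9 ± 2.40 and 56.7 ± 32.4 CPM in that clone. Of 15 peptide loading and proteasome genes 6 were called higher in 14559TN (12.4% of all genes), and 7 higher and 2 lower in 13TN (13.6% and 17.4%). Called higher were 2 in 2646TN (1.69% of all genes) and 2 in 2646R (9.7%), and 0 were called in 14559R (0.196% in either direction). Psmb10, the third inducible proteasome subunit, was called higher in 2646TN (1.34 ± 0.29), 14559TN (1.63 ± 0.30) and 13TN (1.71 ± 0.29). In treated tumours 8 of the 15 were lower in 2646R than in 2646TN, against 10.1% of all genes, with Tap1 at -3.20 ± 0.61, Psmb9 at -2.80 ± 0.66 and Psmb8 at -2.66 ± 0.58. In treated 14559R against treated 14559TN 5 were lower and 2 higher, against 22.7% of all genes lower. With median-of-ratios scaling edgeR called 49.2% of all genes in either direction there.

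Most genes of the interferon lists were called higher with treatment in 14559TN and 13TN. Of 28 type I interferon-induced genes 27 were called higher in 14559TN (12.4% of all genes), 24 in 13TN (13.6%) and 8 in 2646TN (1.69%). In 2646R 2 were called higher, a share below the 9.7% of all genes, and in 14559R 0 (0.196% called in either direction). Oas2, an antiviral synthetase, went from 1 to 59 counts in 14559TN and by a log2 fold change of 3.46 ± 0.44 in 13TN. Of 16 interferon gamma-induced genes 14 were called higher in 14559TN (12.4% of all genes), 16 in 13TN (13.6%) and 0 in the other clones. Gbp4 stood at 3.59 ± 0.71 in 14559TN and 3.31 ± 0.69 in 13TN. The median log2 fold change of the 16 was 1.09 in 2646TN, -0.17 in 2646R and 0.41 in 14559R. Their sum in 2646TN ran from 1231 to 1619 CPM untreated and from 3184 to 3322 CPM treated. In 2646TN 7 of the 16 and 22 of the 28 had an unadjusted edgeR p under 0.05, against 2148 of all 13286 genes. In treated tumours 26 of the 28 and all 16 were lower in 2646R than in 2646TN (10.1% of all genes lower). For 14559R against 14559TN 22 and 14 were lower (22.7% of all genes). These lists were chosen with earlier results of these data known and carry no test of their own.

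Of 27 regulators of class I transcription 9 were called higher in 14559TN (12.4% of all genes) and 10 in 13TN (13.6%), with 2 lower there (17.4%), and 3 were called higher in 2646TN (1.69%). Irf1, an activator of class I promoters, rose by 1.28 ± 0.28 in 14559TN and 1.09 ± 0.28 in 13TN on the log2 scale. Stat2 and Irf7 were called higher in 2646TN, 14559TN and 13TN, Irf7 at 1.53 ± 0.41, 3.99 ± 0.53 and 2.89 ± 0.44.

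Transcripts of the ligands were near or at 0. Ifng had 3 counts in all 30 libraries together, in untreated 2646TN replicates 1 and 3, Ifnk had 1 count, and Ifnb1, Ifna1, Ifna2, Ifna4, Ifna5, Ifne, Ifnl2 and Ifnl3 had 0. The tumour necrosis factor family genes Tnf, Lta and Ltb had 21, 15 and 7 counts in all. In a library of the lowest depth, 3022801 counts, a count of 0 allows up to 3 counts. The 8 genes at 0 in all 30 libraries were not detected, which does not show that they were absent. Reads that matched several places were left out for these genes as well.

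The genes whose pattern over the 10 group means was most like the mean of the tested members, among 9014 genes with at least 10 CPM, were Daxx (Pearson's r of 0.98), Tap1 (0.98), Psmb8 (0.97), Psmb9 (0.97), Igtp (0.96), Isg15 (0.95), Adar (0.95), Batf2 (0.95), Gm4841 (0.94) and Irf7 (0.94). For H2-K1 alone they were Iigp1 (0.99), Tap1 (0.98) and Batf2 (0.98), for H2-D1 Daxx (0.98), Tap1 (0.97) and Adar (0.97), and for B2m Tle4 (0.99), Stat2 (0.97) and Nlrc5 (0.96). Daxx, which lies in the MHC region near the class I genes and encodes a chaperone of histone variants, varied little, from 31.8 ± 2.08 CPM in treated 2646R to 59.2 ± 16.5 CPM in treated 13TN. Iigp1 went from 79.95 ± 36.1 to 2653 ± 896 CPM between the same groups. Tle4, which encodes a transcriptional corepressor, ran from 11.0 ± 2.59 to 48.5 ± 10.9 CPM. The 10 means share clones and treatment, and the values describe likeness only.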

How the data were processed

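Gene counts were deposited for 30 libraries, 3 for each of 10 groups. Reads were aligned with STAR 2.6.0c to GRCm38 and counted per gene with featureCounts 1.6.2 on the sense strand without multi-mapping reads, per the submitters' processing notes and the file headers. Totals ran from 3022801 to 5278453 counts per library. From the deposited counts, edgeR 4.0.16 (R 4.3.3) fitted 1 robust quasi-likelihood model over all 10 groups after TMM scaling and filterByExpr, with 13286 genes tested, 16 comparisons and Benjamini-Hochberg adjustment within each. The biological coefficient of variation was 18.2%. CPM used TMM factors, and log2 CPM a prior count of 2. A gene with 0 counts in a group was set to a floor of 3 counts over the group, and intervals and floors cover counting error only.

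The members and lists were chosen with earlier results of these data known. Genes outside the members were named by rank within each list (largest change among those called) or by likeness of pattern to the members; Tap1, Psmb8, Psmb9, Tapbp, Nlrc5 and Irf1 are always named, as are ligands with a count, and H2-T10 was added after its values were seen because it shares sequence with H2-T22. Alternatives were another scaling, no filter, DESeq2 1.42.0, fewer groups in the fit, a marker covariate, summed paralogs and leaving out each library. Separate tumours were not stated to be separate animals, so p-values measure the spread between these samples. One further gene of that rule is not reported here.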

Additional observations from a re-analysis of the deposited data

How the results depend on the processing

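No paired analysis was possible because each tumour has its own code and no replicate number is shared between groups. Median-of-ratios scaling, TMM factors without the listed genes and summed paralogs (H2-Q6 with H2-Q7, H2-T10 with H2-T22) left every count of members called within 1.5 times of the reported one, and no scaling moved the median of all genes by more than 0.0466 on the log2 scale. Without a filter, 25894 genes and all 9 members were tested, and the members called came to 2 in the 2646TN response (3.73% of all genes called in that fit), 4 in 2646R (10.2%), 8 in 14559TN (13.6%) and 6 in 13TN (14.7%), to 7 for 2646R against 2646TN untreated (17.8%), to 2 and 6 for 14559R against 14559TN untreated and treated (11.9% and 24.2%), and to 7, 1 and 4 for 2646TN against 14559TN, 2646TN against 13TN and 14559TN against 13TN (9.86%, 8.6% and 6.58%). The differences of response then had 4 (2646R minus 2646TN), 3 (14559R minus 14559TN) and 2 (2646TN minus 14559TN), with 3.77%, 6.88% and 7.4% of all genes. The standard error of H2-K1 in the 14559TN response was 0.144 in that fit and 0.631 with the filter, and the cause was not tested. DESeq2 called 1 member in the 2646R response (22.1% of all genes), 4 in 14559TN (29.7%), 3 for 2646R against 2646TN untreated (37.7%), 1 and 2 for 14559R against 14559TN untreated and treated (25.6% and 50%), 5 for 2646TN against 14559TN (20.2%), 1 for 14559TN against 13TN (12.6%) and 1 in the difference of the responses of 2646R and 2646TN (5.79%). With only the compared groups in the fit, 5 were called in the 14559TN and in the 13TN response (38.9% and 35.1% of all genes), 1 and 2 for 14559R against 14559TN (31.1% and 49.6%), 5 for 2646TN against 14559TN (28.8%) and 2 for 14559TN against 13TN (17.9%). With the macrophage and leukocyte covariate, 0 were called for 2646R against 2646TN untreated, 14559R against 14559TN treated and 2646TN against 14559TN (14.9%, 46.5% and 6.23% of all genes), and H2-T22, not called, changed sign in the 2646TN response (-0.39) and in the difference of the responses of 2646R and 2646TN (0.34). The cause of these shifts was not tested.

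Leaving out 1 library at a time gave 0 to 3 members called in the 2646R response (13.1% to 19.3% of all genes), 0 to 2 in 14559TN (20.3% to 24%), 0 to 6 for 2646R against 2646TN untreated (27.5% to 34.2%), 0 to 2 for 14559R against 14559TN treated (40.6% to 45.8%) and 1 to 4 for 2646TN against 14559TN (12.5% to 15.3%). Estimates that were not called changed sign over these fits. In the 2646TN response B2m ran from -0.054 to 0.29 and H2-Q4 from -0.046 to 1.06. In 2646R H2-K1 ran from -1.57 to 0.21, H2-Q4 from -1.41 to 0.12, H2-T22 from -0.86 to 0.32 and H2-M3 from -0.81 to 0.075. In 14559R H2-K1 ran from -0.31 to 0.41, H2-D1 from -0.14 to 0.57, H2-Q7 from -0.53 to 0.69 and H2-M3 from -0.37 to 0.49. H2-Q6 in 13TN ran from -1.29 to 0.16, H2-M3 for 2646R against 2646TN untreated from -0.75 to 0.13, and for 14559R against 14559TN untreated H2-D1 from -0.33 to 0.53, H2-Q4 from -0.65 to 1.06 and H2-T22 from -0.043 to 0.25. Depth limits H2-T23 and H2-Q6 most, which had 0 counts in whole groups.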
